A study of Mus musculus with 10 samples.

Results

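The regions described here were the H3K9lc regions that the authors' annotation placed in an exon, a 5′ UTR or a 3′ UTR. They were chosen as the rows of the table of the TGF and siHK1 libraries whose annotation starts with one of those 3 classes. There were 3599 such regions among 74751 listed (4.81%, exact 95% binomial interval 4.66 to 4.97%), of which 2971 lay in exons, 552 in 3′ UTRs and 76 in 5′ UTRs. The annotation gives precedence to promoters: no region within 3000 bp of the start of the gene that the authors assigned to it is in the set, and the nearest one lay 3002 bp away. That gene is often not the one whose exon is overlapped, so regions near the start of their own host can remain in the set; 1105 lay in a single-exon transcript and 367 in the first of several exons, at whatever distance from its start. All coordinates are on mouse build GRCm38, counted from 1.

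H3K9lc is lactylation of histone H3 at lysine 9, a mark whose donor derives from lactate. CUT&Tag maps it by means of an antibody that tethers a transposase, whose cuts in nearby chromatin are then sequenced. Mouse cardiac fibroblasts were used in 3 libraries: cells labelled as control with no treatment (NC), cells given TGF-β, a cytokine that turns fibroblasts into matrix-producing myofibroblasts (TGF), and TGF-β-treated cells in which hexokinase 1, an enzyme at the entry of glycolysis, was knocked down by siRNA (siHK1; its label gives SI). Whether NC received a control siRNA is not stated in its labels. The title of NC states no antibody, and the library was taken as H3K9lc from the table listed in its description. There was 1 library per condition, so no difference was tested between conditions, every comparison is between libraries, and intervals cover counting error only. The labels name no animals, pools or siRNA sequence, and with no RNA or protein measure the knockdown and the cell identity were not checked by expression.

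Acyl marks on histone H3 at active genes are known mainly from gene starts and enhancers. An exon in a gene annotation need not be part of a protein-coding gene. Processed pseudogenes are copies of spliced mRNAs that were reinserted into the genome, unprocessed ones are duplicated genes that lost function, and both are annotated as exons. Reads from such copies, from tandem repeats and from nuclear copies of mitochondrial DNA can fit more than one place in the genome.

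The central 30 bases of the regions on which the results turn are printed below, on the plus strand of GRCm38, with CpG dinucleotides in capitals, because whether a stretch occurs once or many times sets how its reads can be placed. The first 4 are the exon regions with the highest mean level, and the fifth is the highest one that resembles mitochondrial DNA.
Gm10800, chr2:98666765-98666794: taggaCGtggaatattgcaagaaaactgaa
Gm10718, chr9:3024023-3024052: atttttcttgattttcatttttcttgccat
Gm10722, chr9:3000752-3000781: catattccaCGtcctatagtggacatttct
Gm21738, chr14:19417405-19417434: agaataacagttgttaggtattgaaatagg
Gm28661, chr1:24615480-24615509: attagtgtgtgatcatggaaatttattagc

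The 30 bases of Gm10718 occurred 9 times in the assembled chromosomes and those of Gm10722 occurred 7 times. Those of Gm10800 and Gm21738 occurred once each, although both regions aligned to Gm10718 along much of their length. The stretch in Gm28661 occurred 2 times, once at this locus and once in the mitochondrial genome. Exact repeats of 30 bases were used to sort the regions, and the best alignment of each region was used to name 2 further groups.

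A small set of regions of related sequence held most of the reads of exon and UTR regions. By alignment to the highest region on chromosome 9, in the predicted gene Gm10718, 20 of the 3599 regions were satellite-like. They lay at the start of chromosome 9 and on chromosomes 2 and 14, all in predicted genes that the annotation calls protein coding. The sequence of the Gm10718 region matched itself best at a shift of 234 bases, where 80.5% of positions were the same. The mouse major satellite of pericentromeric heterochromatin is a tandem repeat with a unit of that length. Not all of the set had this period: Gm10800 matched itself best at 485 bases (59.1%) and aligned to Gm10718 over 819 bases at 72.0% identity, and Gm10801 matched itself best at 120 bases (49.8%) and aligned over 269 bases at 78.1%. Satellite-like therefore means only alignment to the Gm10718 region.

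These 20 regions covered 15.8 kb and held 52.2% of the reads of all exon and UTR regions in the TGF library and 56.5% in the siHK1 library. Of all listed reads they held 6.31% in TGF and 7.51% in siHK1. The highest listed H3K9lc region was not an exon or UTR region, with a mean level of 42276 against 36397 for Gm10800. Of the 10 highest listed H3K9lc regions 4 were exon or UTR regions, and of the 100 highest 25 were. Gm10800 (chr2:98666240-98667320, exon 1 of 5) had 7656 reads in NC, 42265 in TGF and 30866 in siHK1. Per kb it had 39098 reads in TGF and 28553 in siHK1. Gm10718 (chr9:3023420-3024656, exon 1 of 5) had 1914, 14856 and 10113 reads in NC, TGF and siHK1. Gm10722 (chr9:3000003-3001532, exon 1 of 4) had 1439, 14800 and 9498 reads. Gm21738 (chr14:19416888-19417952, exon 3 of 6) had 1234, 10579 and 7018 reads. In each of these 4 regions NC had the fewest reads and TGF the most, the order of the libraries' totals.

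A further 10 regions resembled mitochondrial DNA, all of them in pseudogenes. Adjoining regions in Gm28439, Gm28437 and Gm28661 on chromosome 1 were identical to the mitochondrial genome along their whole lengths of 1004, 1132 and 1283 bp. Gm28661 had 336 reads in NC, 5851 in TGF and 3681 in siHK1. Gm28437 had 301, 5259 and 3283. Gm28439, with no row at its position in the table with NC, had 3716 in TGF and 2562 in siHK1. Mitochondrial DNA has no histones, and whether the reads came from it or from the nuclear copy could not be told apart. Together the 10 regions held 5.51% of the reads of exon and UTR regions in TGF and 5.65% in siHK1.

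The same loci were also prominent in the libraries made with other antibodies. The region with the most reads in each of the 6 libraries for JUN, SMAD3 and NFATC2 lay on chromosome 2 and began within the Gm10800 region. Regions overlapping the satellite-like set held 17.4% of listed reads in the TGF library for SMAD3, 15.4% for NFATC2 and 1.02% for JUN. Regions overlapping the mitochondrial-like set held 6.71%, 11.3% and 0.913% in the same order. In the siHK1 libraries the satellite-like share was lower than in TGF for SMAD3 (13.1%) and NFATC2 (13.4%) and higher for JUN (1.62%), so it moved in both directions across antibodies. The mitochondrial-like share was higher in siHK1 than in TGF for SMAD3 (9.86%), NFATC2 (12.4%) and JUN (1.05%). For H3K9lc it was 0.752% in siHK1 and 0.666% in TGF. In the NC library the satellite-like loci held 16.9% of the listed reads, against 6.70% in TGF in the same table. The distance between NC and TGF was larger than that between TGF and siHK1.

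**Figure D1:**
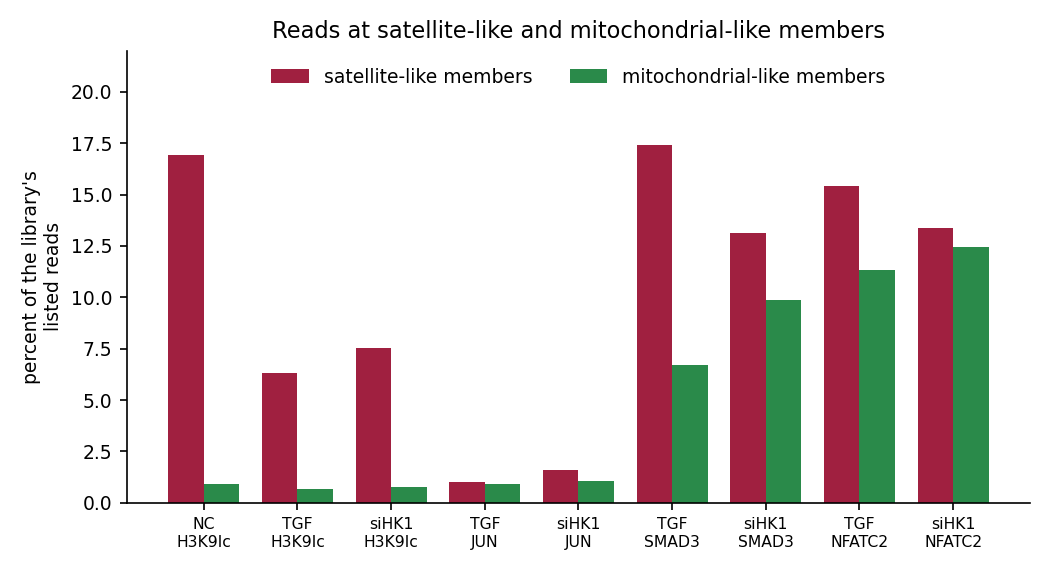
Percent of the listed reads of each library (bars) in regions that overlap the 20 satellite-like and the 10 mitochondrial-like exon regions, for 9 libraries named by condition and antibody. The satellite-like bar stands at 16.9% in NC, 6.31% in TGF and 7.51% in siHK1 for H3K9lc, and at 1.02% in TGF for JUN.

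Outside these 30 regions, levels were low. The 1320 other regions whose central 30 bases occur again had a median of 26 reads in TGF and 13 in siHK1. The 2249 regions with central bases found once had medians of 15 and 8 reads. All exon and UTR regions had medians of 18 and 10, against 16 and 8 over all listed regions. Across all 3599, 26 had at least 1000 reads in TGF.

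Relative to the libraries' totals, satellite-like regions were slightly higher in siHK1 than in TGF in the H3K9lc libraries. After both libraries were scaled to equal totals over all listed regions, the log2 ratio of siHK1 over TGF was above 0 in 20 of 20, from 0.12 to 0.39, with a median of 0.20. The ratio of Gm10800 was 0.36 (exact 95% interval 0.34 to 0.38), that of Gm10718 was 0.26 (0.22 to 0.29) and that of Gm10722 was 0.17 (0.13 to 0.21). None of the 20 differed by 2-fold. The mitochondrial-like regions had a median of 0.15, with 8 of 10 above 0. The regions with central bases found once had a median of -0.03 (-0.08 to 0.00, order-statistic interval over regions) and the other repeated ones -0.08 (-0.12 to -0.05).

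**Figure D2:**
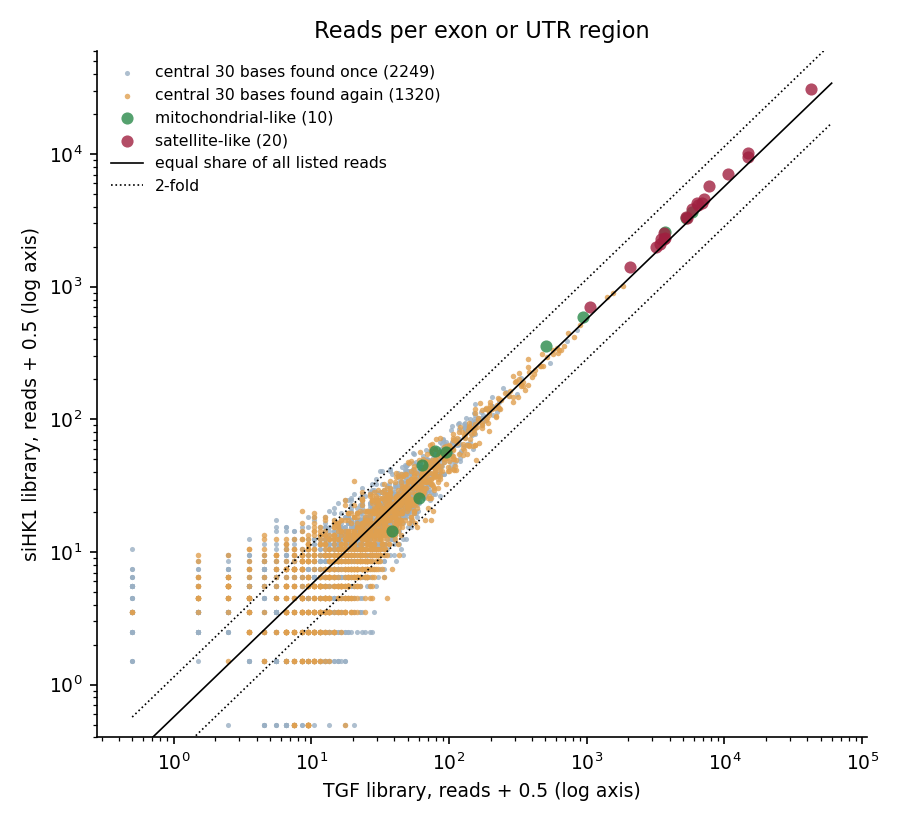
Reads + 0.5 per exon or UTR region in the TGF library (x) and the siHK1 library (y), both on log axes, with 1 point per region, coloured by how its sequence recurs. The solid line marks an equal share of all listed reads and the dotted lines 2-fold; the 20 satellite-like regions lie at the upper end, above the solid line, and the spread widens where reads are few.

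Fewer than 1 in 2 regions lay in protein-coding genes. The transcript that the annotation names was found in GENCODE vM21 for 2953 of 2971 exon regions, and in all a host gene was found for 3573 regions. Of the 3599 regions, 1453 (40.4%) were in protein-coding genes, 843 in processed pseudogenes, 385 in other pseudogenes, 685 in long noncoding RNA genes, 104 in immune receptor segments and 103 in small or ribosomal RNA genes. Only 1112 regions overlapped coding bases. The symbol that the authors give is that of the nearest gene start. It was the symbol of the host gene in 1128 regions and a different symbol in 2445. Symbols were compared as text, so a gene listed under another name counts as different.

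Processed pseudogenes were far denser in regions than protein-coding genes. The length counted was exon widened by 200 bp on each side, without exon within 3000 bp of the start of a gene with an Entrez ID. Exon near the start of genes without such an ID was kept; 2108 of the 2971 exon regions lie in transcripts that the authors' annotation ties to no Entrez gene. Per Mb of this length, processed pseudogenes had 74.5 regions (95% Poisson interval 69.5 to 79.7) and other pseudogenes 68.2 (61.6 to 75.4). Long noncoding RNA genes had 22.1 (20.5 to 23.8) and protein-coding genes 10.2 (9.73 to 10.8). Immune receptor segments had 174 (142 to 211). These intervals count regions as independent, which neighbouring regions need not be. The central 30 bases occurred again in 380 of 843 regions in processed pseudogenes (45.1%) and in 342 of 1453 in protein-coding genes (23.5%). The part of reads shared between a pseudogene and its parent gene was not tested.

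**Figure D3:**
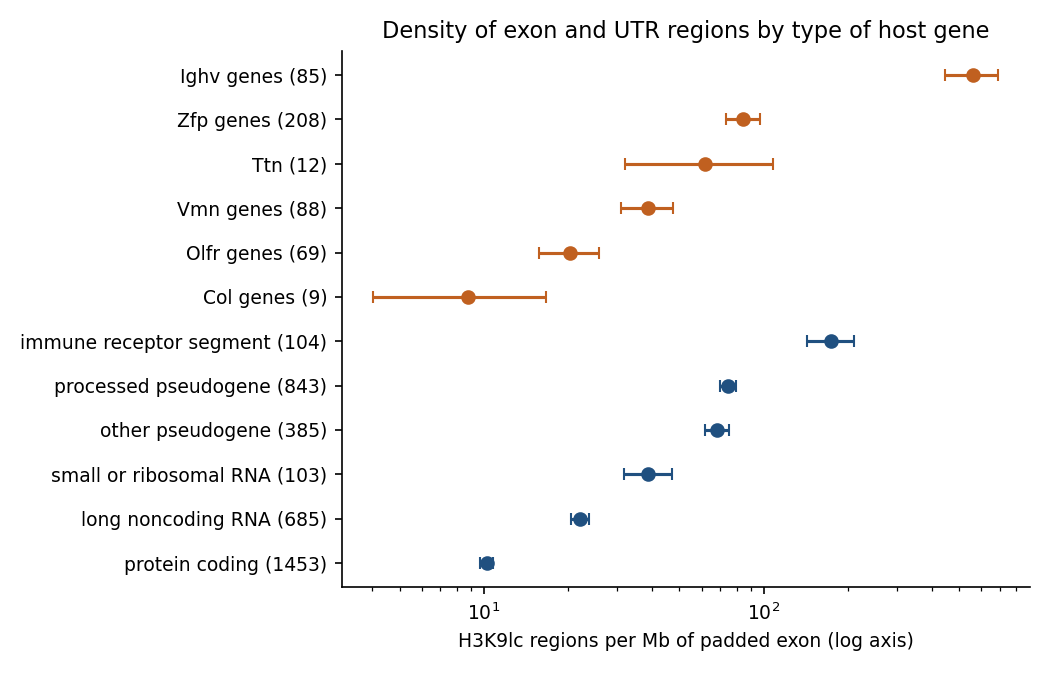
H3K9lc regions per Mb of padded exon (log axis) by type of host gene (blue) and for gene families and Ttn (orange), with 95% Poisson intervals and the number of regions in brackets. Protein-coding genes stand lowest of the 6 types at 10.2 and immune receptor segments highest at 174.

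Densities differed widely between the gene families counted. Zfp genes, which encode zinc finger proteins and many of which silence transposons, held 208 regions in 147 genes, or 84.5 per Mb (73.4 to 96.9). Ighv genes, the variable segments of antibody heavy chains, held 85 regions in 85 genes, or 558 per Mb (446 to 690). Vmn genes, receptors for pheromones, held 88 regions, or 38.5 per Mb (30.9 to 47.4). Olfr genes, odorant receptors, held 69 regions, or 20.3 per Mb (15.8 to 25.7), and Pcdh genes, which encode protocadherins, held 3, or 17.6 per Mb (3.63 to 51.4). Col genes, which encode collagens, the fibres of the scar matrix, held 9 regions, or 8.80 per Mb (4.03 to 16.7).

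The highest region in each of 2 families, one in a gene of the repetitive barrier protein Flg2 and one in Ttn are shown as examples of sequence in these hosts, again as the central 30 bases on the plus strand with CpG in capitals.
Zfp180, chr7:24105871-24105900: tgCGgccagtgtgggaagaCGttcaggcag
Ighv1-70, chr12:115691975-115692004: atgCGgccttgtccttgtacatctcattgt
Flg2, chr3:93213215-93213244: gagagagtctgtgcatggccaacagggcag
Ttn, chr2:76726058-76726087: gtgctgaaggagtctgttgtgtggatatca

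Those of Zfp180, Ighv1-70 and Ttn occurred once and that of Flg2 occurred 2 times. The region of Zfp180, in its 3′ UTR by the authors' class, had 12 reads in NC, 270 in TGF and 149 in siHK1. The region of Ighv1-70 had 67 in TGF and 26 in siHK1. Zfp regions had a median of 34 reads in TGF, 23 in siHK1 and a median log2 ratio of 0.11 (0.00 to 0.21). Ighv regions had 22 and 8 reads and a median of -0.25 (-0.45 to -0.04), Vmn regions 11 and 5 reads and -0.38 (-0.70 to -0.06), and Olfr regions 12 and 5 reads and -0.42 (-0.72 to -0.09). The median over all listed regions was -0.11.

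Regions were unevenly placed along the genome. Chromosome 7 held 556 of them (15.4%), against 8.0% of all listed regions. In windows of 1 Mb the most were at chr12:115000001-116000000, with 50 regions of which 40 were in Ighv segments, followed by the neighbouring window at chr12:114000001-115000000 with 36, of which 34 were. The window at chr7:38000001-39000000 held 36, with 33 in pseudogenes. The window at chr7:59000001-60000000 held 25, of which 21 were in small RNA genes; the others were in noncoding transcripts that include Snhg14, the host transcript of small nucleolar RNAs at an imprinted locus. The window at chr1:85000001-86000000 held 34 with a median of 202 reads in TGF and 103 in siHK1. In the order given, these windows held 148, 134, 94, 100 and 216 listed regions of any class. Exon and UTR regions were thus a minority in each, and whether the crowding is particular to them was not tested.

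By number of regions, the leading host gene was D10Wsu102e, whose long annotated 3′ UTR on chromosome 10 held 19 regions between 83390192 and 83473139. They had from 10 to 84 reads in TGF, with a median of 32, and from 3 to 50 in siHK1, with a median of 18. Their summed log2 ratio was -0.08 (-0.26 to 0.10).

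Ttn, which encodes titin, the molecular spring of the sarcomere, came next with 12 regions between exons 61 and 186 of 191. All 12 had central bases found once. They had from 3 to 47 reads in TGF (median 16) and from 3 to 41 in siHK1 (median 9.5). The highest was in exon 167 (chr2:76725598-76726548), with 47 reads in TGF and 41 in siHK1. Summed over the 12, the ratio was 0.00 (-0.30 to 0.30), and 7 regions were above 0 and 5 below. Ttn was one of the 9 cardiomyocyte markers, and none of the other 8 hosted an exon or UTR region.

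Several regions each lay in exons of Flg2, Flg and Ahnak2. No coding bases were overlapped by 5 of the 9 Flg2 regions and 3 of the 5 Flg regions, whereas all 6 Ahnak2 regions overlapped coding bases. Flg2, a filaggrin-family protein of the skin barrier, held 9 regions in exon 3 of 3, with 140 to 1561 reads in TGF (median 475) and 63 to 891 in siHK1 (median 292). Its highest region (chr3:93211777-93214683) had 1561 and 891 reads and matched itself best at a shift of 234 bases, with 67.3% of positions the same. Summed over the 9 regions the ratio was 0.03 (-0.03 to 0.10). Flg, its relative next to it, held 5 regions whose summed counts were 882 for TGF and 433 for siHK1, at a ratio of -0.21 (-0.38 to -0.05). Ahnak2, which encodes a very large scaffold protein, held 6 regions with 1206 and 764 reads and a ratio of 0.15 (0.02 to 0.29). None of the regions of Flg or Ahnak2 had central bases found once, and 1 of 9 in Flg2 did.

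The highest UTR regions held fewer reads than those in exons, and their central bases occurred again in the 3 of 3′ UTRs and in 1 of the 3 of 5′ UTRs. Mid1, a ubiquitin ligase gene at the edge of the pseudoautosomal region, had 893 reads in TGF and 510 in siHK1 at chrX:169987458-169989810 in its 3′ UTR, with 25 in NC. A second region at chrX:170005365-170006322 had 382 and 227. The region in the 3′ UTR of Lars2, the mitochondrial leucyl-tRNA synthetase, at chr9:123461792-123462252 had 29 reads in NC, 356 in TGF and 166 in siHK1. Of the 5′ UTR regions, the highest lay at chr15:91908634-91910360 nearest to Smgc, where TGF had 622 reads and siHK1 316. The next was in Zfp37 (chr4:62191371-62192450), with 180 and 96 in a region that GENCODE vM21 gives as coding over all its 1080 bp, and the third in Ppp2r3d (chr9:124422511-124423553), with 134 and 65.

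As a whole, exon and UTR regions had a ratio of siHK1 over TGF close to that of the libraries' totals. The median log2 ratio was -0.05 (-0.08 to -0.03), against -0.12 (-0.12 to -0.11) over all other regions, which is 3599 against 71152 regions. This small value depended on the setting: it was -0.12 with the authors' normalized log2 values and 0.073 in exon and UTR regions with a peak in both libraries. With the main settings the median was -0.06 in exons, 0.00 in 3′ UTRs and -0.17 (-0.34 to 0.11) in the 76 regions of 5′ UTRs. Intergenic regions had -0.13 and introns -0.08. By quintile of all regions' mean level, exon and UTR regions stood at -0.16 and the rest at -0.17 in the lowest quintile, and at 0.00 and -0.04 in the highest. The highest quintile held 982 exon and UTR regions and the lowest 631.

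**Figure D4:**
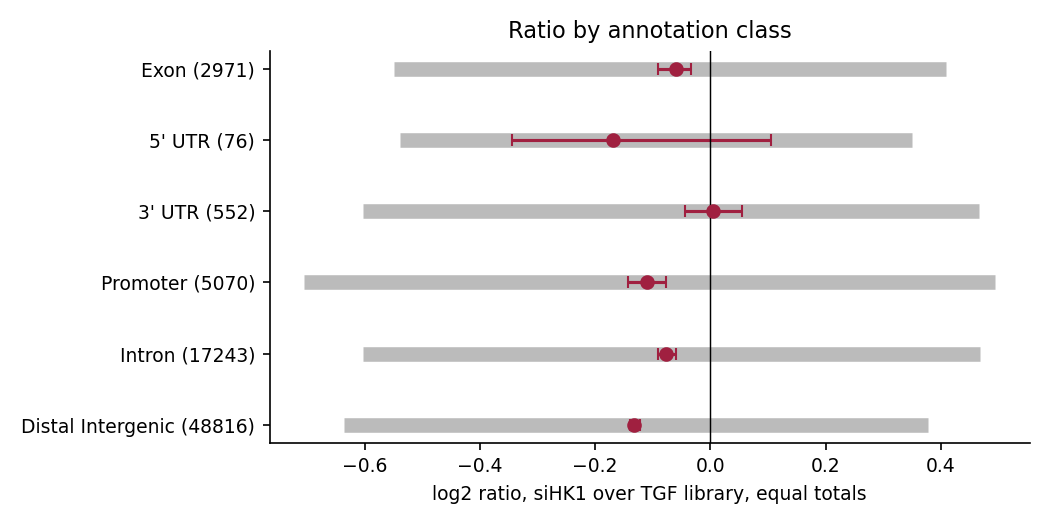
Log2 ratio of the siHK1 over the TGF library, after scaling to equal totals, by annotation class with the number of regions. Points are medians with 95% order-statistic intervals over regions and grey bars span the quartiles; all medians lie between -0.17 and 0.00 and the grey bars overlap throughout.

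A difference of at least 2-fold was counted where the mean scaled count was at least 10. Of 2202 exon and UTR regions at that level, 98 were lower in siHK1 (4.45%, 3.63 to 5.40%), against 5.25% of all listed regions at that level. Higher in siHK1 were 78 (3.54%, 2.81 to 4.40%), against 3.53%. Both shares were near those of all regions. The balance depended on the setting, with 138 lower and 58 higher by the deposited log2 values, but 13 and 16 at a mean of at least 20. In 5′ UTRs 4 of 49 were lower and 0 of 49 higher. In 3′ UTRs 14 of 304 were lower and 6 higher. Of Ighv regions, 6 of 58 were lower (10.3%, 3.89 to 21.2%) and 0 higher; of Zfp regions, 3 of 178 were lower (1.69%, 0.349 to 4.85%) and 5 higher.

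The largest differences were in regions of few reads. The central 30 bases of the 3 largest decreases and the 3 largest increases, in that order, were these, with CpG in capitals and on the plus strand.
Gm19127, chr7:108579555-108579584: atggtcaacactatcaactgggctccttta
Gm38131, chr3:4394160-4394189: gtactgtcccatcaatctagaagctctcct
Gm7103, chr3:8215639-8215668: gaatatatgctagggCGcacagtaaaagac
CT030193.1, chr17:92372944-92372973: ggcctcatcacccatggaggaatctttctg
Gm6820, chr7:41124502-41124531: cttccccaactcttcaacttcctcacaggc
Gm14817, chrX:73795517-73795546: ttgacatctagggcactgttgccactggag

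The first 3 were processed pseudogenes of a single exon, and each of their stretches occurred once. Gm19127, near the odorant receptor gene Olfr504, had 0 reads in NC, 27 in TGF and 2 in siHK1, a log2 ratio of -2.73 (-6.06 to -0.95). Gm38131 had 0, 26 and 2 (-2.68), and Gm7103 had 0, 24 and 2 (-2.56). The siHK1 library was low and the TGF library high in all 3. Others among the 10 largest decreases were in Ighv1-76, where a 5′ UTR region had 24 reads for TGF against 3 for siHK1, and in the 3′ UTR of Ocstamp, a gene of osteoclast fusion, with 22 and 3. A further one was in the 3′ UTR of Olfr1175-ps, with 28 and 3.

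Of the 10 largest increases, the pseudogene CT030193.1 led with 5 reads in TGF and 17 in siHK1 (2.43, 1.08 to 4.37). Gm6820 had 4 and 13 (2.33), and Gm14817 had 5 and 15 (2.25). In protein-coding genes, Slc13a3, a carrier of dicarboxylates, had 5 and 14 reads in exon 9 of 13 (2.16), and Kcnh1, a potassium channel, had 9 and 18 in exon 7 of 11 (1.74). All 10 decreases were called as peaks in TGF and not in siHK1, and all 10 increases the reverse. The intervals of all 20 left out 0, but the regions were picked as the extremes of 2202.

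**Figure D5:**
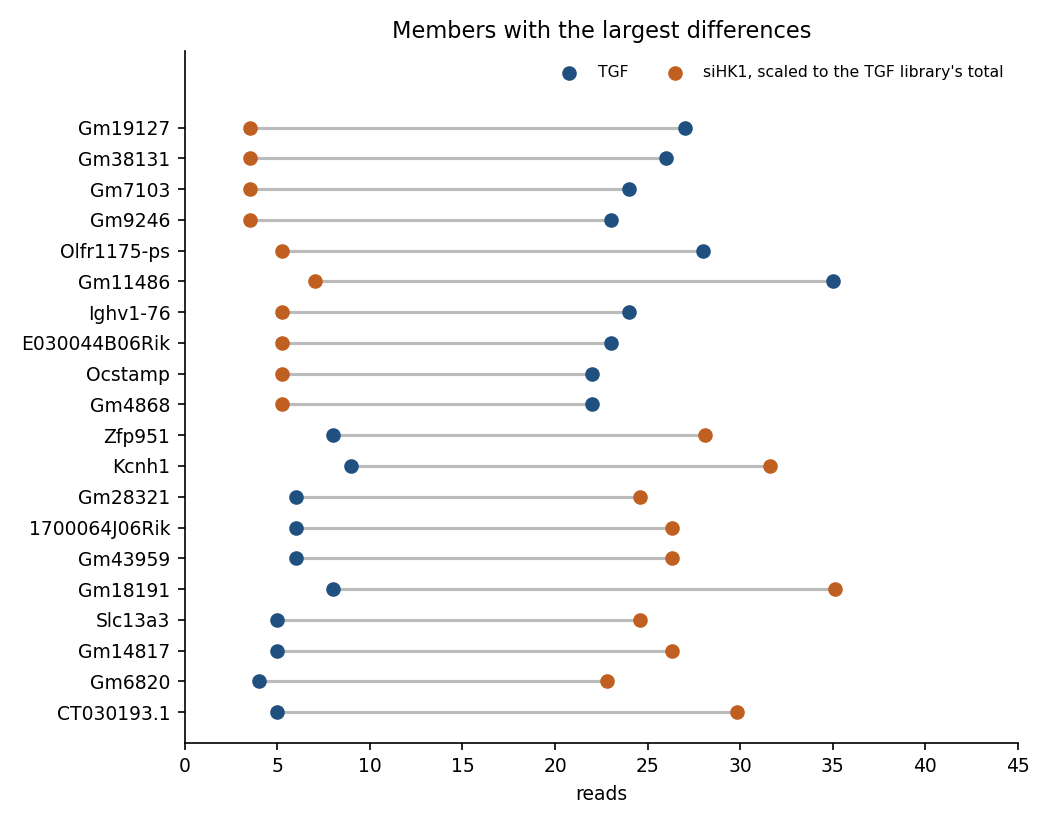
Reads of the 10 largest decreases (upper rows) and 10 largest increases (lower rows) by host gene, in the TGF library (blue) and in the siHK1 library scaled to the TGF total (orange). TGF counts run from 22 to 35 in the decreases and from 4 to 9 in the increases.

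Over the whole set, a peak was called in TGF and not siHK1 in 1858 regions (51.6%), in siHK1 and not TGF in 833 (23.1%), in both in 885 (24.6%, 23.2 to 26.0%) and in neither in 23. Over all listed regions these shares were 54.7%, 24.2% and 20.8% in the same order. Over the listed regions the total was 2490853 reads for TGF and 1419023 for siHK1; the part of this gap in the peak marks was not tested.

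Lists of genes of fibroblast activation were set beside the host genes. Of the 33 matrix genes listed, 3 hosted 5 regions. Col6a1, a chain of collagen VI, had 16 reads in TGF, 4 in siHK1 and 0 in NC in exon 31 of 35, a ratio of -1.12 (-3.23 to 0.44). Fbn1, fibrillin of elastic microfibrils, had 0 reads in TGF and 7 in siHK1 in exon 46 of 66. Col5a3, a chain of collagen V, had 3 regions, with 12 and 5, 5 and 11, and 11 and 4 reads in TGF and siHK1. None of the 5 reached the level limit. No exon or UTR region was hosted by the 14 contractile genes, the 24 of TGF-β signalling or the 28 of glycolysis and lactate. As the nearest gene, the matrix list was assigned 99 listed regions of any class, and these 3 lists 19, 86 and 49. With 4.81% of all listed regions in exons or UTRs, counts this small are not a result about these genes.

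Of the 15 histone acylation genes, Ep300, an acetyltransferase also credited with lactylation, had 0 reads in TGF and 3 in siHK1 in exon 14 of 31. Of the 25 transcription factor genes, Nfatc2 had 12 reads in TGF and 11 in siHK1 in exon 2 of 10 (0.66, -0.64 to 1.99). Some regions bear a listed gene's symbol only as the nearest gene: the one assigned to Hk2, a hexokinase, was in an exon of the antisense gene Gm17034, with 5 and 2 reads. Among marker genes of other cells, Tek of endothelium had 4 and 11 reads in 1 region and Ptprc of leukocytes had 0 and 3, and the 11 fibroblast and 6 mural markers hosted none.

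Against NC, the comparison was limited to regions found at the same position in both tables. There were 2057 of these, and all of them had a peak in TGF, 408 also in siHK1 (19.8%) and 29 in NC (1.41%). Over all matched regions a peak was marked in siHK1 in 15.3% and in NC in 0.862%. All 833 regions with a peak in siHK1 and not TGF were among those left unmatched. The match therefore favours regions that are high in TGF, and the direction against NC is partly fixed by it. In NC the listed regions held 115572 reads, against 2313288 in TGF in the same table.

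Of the 2057 matched regions, 1032 had 0 reads in NC (50.2%, 48.0 to 52.4%), against 56.0% of all matched regions. A level below that of single reads was not detectable in NC at this depth. The median count was 0 in NC and 20 in TGF. After scaling to equal totals the median log2 ratio of TGF over NC was 1.69 (1.39 to 1.88), against 2.05 over all matched regions. Without the match, it was 0.73 over the 3197 exon and UTR regions of the table with NC and 0.96 over all 65853 of its regions. The satellite-like regions went the other way: the 14 that matched had ratios from -1.86 to -0.55, with a median of -0.94, while their counts were a median of 425 in NC and 4750 in TGF. The 1249 matched regions with central bases found once had a median of 2.0. Regions with 1 or 0 reads in NC take their ratio largely from the pseudocount.

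Sequence set exon and UTR regions apart from the intergenic ones in repeat content. A median of 11.1% of their bases were soft-masked as repeats, against 73.3% in intergenic regions, 56.3% in introns and 11.4% in promoter regions. The median GC content was 49.6%, against 48.5% over all regions and 51.5% in promoters, and the median CpG density was 12.3 per kb, against 9.90 over all and 14.0 in promoters. Widths were similar, with a median of 401 bp against 363 bp. The central 30 bases occurred again in 37.3% (35.7 to 38.9%), against 52.4% in intergenic regions.

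Regions of the 3 transcription factors overlapped exon and UTR regions about as often as they overlapped all listed regions. JUN, an AP-1 subunit, shared at least 1 bp with 217 of 3599 (6.03%, 5.27 to 6.86%), SMAD3, the effector of TGF-β receptors, with 256 (7.11%, 6.29 to 8.0%) and NFATC2, a calcium-responsive factor, with 264 (7.34%, 6.50 to 8.24%). The shares were 5.92%, 6.50% and 6.58% over all listed regions, 7.28%, 8.05% and 8.03% in introns, 20.7%, 14.9% and 13.6% in promoter regions and 3.90%, 5.04% and 5.27% in intergenic ones. At least 1 of the factors overlapped 475 regions (13.2%, 12.1 to 14.3%), against 12.3% of all listed regions, and all 3 overlapped 92. All 20 satellite-like and all 10 mitochondrial-like regions overlapped a JUN region. In 5′ UTRs, 10 of 76 overlapped JUN (13.2%, 6.49 to 22.9%).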

How the data were processed

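Region tables of CUT&Tag in cultured mouse cardiac fibroblasts were analysed, covering 3 libraries for H3K9lc and 6 for JUN, SMAD3 and NFATC2. The authors deposited raw read counts per region and library, a 0 or 1 mark for a called peak, and normalized log2 values per library, which were used in 1 alternative. The submitters' processing notes name BWA 0.7.12 and mm10, whereas the study's methods name Bowtie2, MACS2 and GRCm39. Transcript coordinates in the tables lay on GRCm38, so the GRCm38 genome and GENCODE vM21 were used. Columns with the authors' log2 ratios, p-values and calls were not used. A further table, of a library with no antibody in its labels, was not used; it holds 2 columns of a sample that the labels do not name.

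Counts were scaled to equal totals over all listed regions, and log2 ratios took a pseudocount of 0.5. Calls needed a 2-fold difference and a mean scaled count of at least 10. These totals cover the listed regions only, and the sequencing depth is unknown. Spike-in DNA is named in the methods and was not used here, so a change common to all regions cannot be seen. Shares carry exact Clopper-Pearson intervals and ratios exact conditional binomial ones; PCR copies are not independent molecules. Regions were aligned with blastn 2.17.0 at an e-value of 1e-20; the statistics ran in Python 3.11.15 with scipy 1.17.1, and the ratio and calls were tested on simulated data. The regions, gene lists and rules were chosen with earlier results of these data known. Named regions were the 10 of highest mean level, the 10 largest decreases and increases at that level, those of the 8 genes with most regions, the 3 highest per class, those of listed genes and the 5 with most NC reads; mitochondrial-like regions, host types, 1 Mb windows and examples of families were chosen after values were seen. Alternatives were another annotation, width, scaling, pseudocount, level and fold limit, the match to NC, the overlap and the GC window.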

Additional observations from a re-analysis of the deposited data

How the results depend on the processing

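Of all listed regions, 3714 had their midpoint in an exon of GENCODE vM21, and the overlap of that set with the 3599 was not counted. Of the 3599 themselves, 3594 lay on chromosomes 1 to 19 and X and 3519 were at least 200 bp wide. These are subsets, so their size says little about the choice of regions. The median GC content was 49.5% in the central 200 bp. For siHK1 over TGF, the median log2 ratio was -0.84 with no scaling, -0.12 with the authors' normalized log2 values and -0.024 at a mean scaled count of at least 10, and it turned to 0.073 in regions with a peak in both libraries; the cause was not tested. Regions lower by 2-fold numbered 13 at a mean of at least 20, 460 with no limit, 17 at 3-fold and 56 among regions with central bases found once. Regions higher by 2-fold numbered 16, 408, 17 and 47 under the same settings. By the deposited log2 values 138 were lower and 58 higher, against 98 and 78. The median ratio of TGF over NC was 4.39 with no scaling, 1.17 with the deposited log2 values and 1.23 with a pseudocount of 1. It was 0.73 over every exon or UTR region of the table with NC and 2.0 among regions with central bases found once. The share overlapping a factor fell to 7.39% when most of the region had to be shared (at least 50%). Restriction to regions with central bases found once and totals without the satellite-like and mitochondrial-like regions were chosen after seeing the data. These changed totals moved the median ratio by 0.02. No paired analysis was possible because there is 1 library per condition, and no replicate could be left out. The NC library is shallow, with 115572 reads over its listed regions, and levels below single reads were not detectable there.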
